A study of Mus musculus with 5 samples.

Results

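The genes described here encode the machinery that transcribes nuclear DNA: the subunits of RNA polymerases I, II and III, the Mediator complex, the TATA-binding-protein-associated factors (TAFs) and the general transcription factors of the TFII and TFIII classes. They were taken by symbol from the protein-coding genes of the RefSeq mouse annotation (GRCm38.p6, which shares mm10 coordinates), as every Polr1, Polr2, Polr3, numbered Med, numbered Taf, Gtf2 and Gtf3 gene, which gave 105 of 21887 genes. Chromatin came from dissociated cells of the mouse fetal testis and was profiled by CUT&RUN, which releases the DNA beside an antibody-bound protein for sequencing. An antibody against CREB was used at 3 stages given in embryonic days (E13.5, E16.5, E18.5). An antibody against H3K4, labelled without a methylation state, was used at E18.5. No genotype, strain or treatment is given in the labels, and whether gonads were pooled is not given either. Each antibody and stage has 1 library, so differences between stages have no replicate check and no test is given. Values for several stages are given below from the earliest to the latest. An IgG library of the series was not analysed here.

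CREB is a DNA-binding transcription factor that cAMP signalling activates through phosphorylation. It binds the cAMP response element (CRE), a short palindrome, and also its half-site, and its known targets often carry such letters near the start of the gene. The nuclear polymerases divide the work: polymerase I makes ribosomal RNA, polymerase II messenger RNA, and polymerase III transfer RNA and other small RNAs. General factors place a polymerase on a promoter and open the DNA, and Mediator links factors bound elsewhere to polymerase II. Methylated H3K4 is a usual mark of gene starts. Most cells use this machinery, but a few of its genes are paralogs known for their use in gonads or germ cells, such as Taf4b, Taf7l and Gtf2a1l.

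A gene is called marked by a list when any of its peaks reached within 1000 bp of an outer end of the gene. Of the 105 genes, 8 had a CREB peak at all 3 stages: Taf13, Med20, Med29, Gtf3c1, Gtf3c2, Polr2a, Gtf2h5 and Gtf2f1. The share was 7.62% (95% Wilson interval 3.91 to 14.3), and 3.83% of all protein-coding genes had a peak at 3 stages. In 7 of these 8 genes the promoter window of the RefSeq table, 250 bases before to 50 bases after a listed start site, held the full CRE, TGACGTCA, or its half-site, TGACG on either strand. Those 7 windows are shown because they hold CRE letters beside a CREB peak at every stage. Each is the 250 bases that end at the start base, on the strand of the gene, from RefSeq GRCm38.p6, with the CRE or half-site in capitals. They lie at chr7:125707688-125707937 (minus strand) for Gtf3c1, chr17:57011288-57011537 (minus strand) for Gtf2f1, chr3:108571450-108571699 (plus strand) for Taf13, chr17:47611336-47611585 (plus strand) for Med20, chr7:28392690-28392939 (minus strand) for Med29, chr11:69758633-69758882 (minus strand) for Polr2a and chr17:6079672-6079921 (plus strand) for Gtf2h5.
Gtf3c1: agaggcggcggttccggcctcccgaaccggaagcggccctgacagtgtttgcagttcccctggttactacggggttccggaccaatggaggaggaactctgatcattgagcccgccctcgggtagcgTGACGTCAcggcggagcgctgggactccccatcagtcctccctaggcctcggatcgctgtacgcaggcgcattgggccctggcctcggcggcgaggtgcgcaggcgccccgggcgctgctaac
Gtf2f1: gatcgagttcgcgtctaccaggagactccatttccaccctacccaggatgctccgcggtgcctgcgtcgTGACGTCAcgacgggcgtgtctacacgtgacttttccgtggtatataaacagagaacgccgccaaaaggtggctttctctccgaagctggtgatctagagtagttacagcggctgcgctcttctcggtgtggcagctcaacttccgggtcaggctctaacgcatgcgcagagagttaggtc
Taf13: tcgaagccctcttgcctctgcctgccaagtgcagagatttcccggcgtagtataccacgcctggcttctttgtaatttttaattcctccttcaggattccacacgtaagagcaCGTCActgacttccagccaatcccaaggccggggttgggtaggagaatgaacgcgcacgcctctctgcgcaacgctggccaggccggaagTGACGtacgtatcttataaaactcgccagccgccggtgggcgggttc
Med20: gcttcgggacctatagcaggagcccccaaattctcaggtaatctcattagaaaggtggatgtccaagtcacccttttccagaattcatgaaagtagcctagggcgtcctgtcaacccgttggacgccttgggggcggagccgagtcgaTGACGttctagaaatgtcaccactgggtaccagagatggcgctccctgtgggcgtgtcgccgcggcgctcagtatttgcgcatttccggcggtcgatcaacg
Med29: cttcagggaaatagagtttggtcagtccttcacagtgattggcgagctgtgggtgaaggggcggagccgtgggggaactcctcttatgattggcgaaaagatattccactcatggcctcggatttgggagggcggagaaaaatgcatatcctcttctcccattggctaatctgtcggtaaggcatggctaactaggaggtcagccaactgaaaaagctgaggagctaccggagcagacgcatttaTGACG
Polr2a: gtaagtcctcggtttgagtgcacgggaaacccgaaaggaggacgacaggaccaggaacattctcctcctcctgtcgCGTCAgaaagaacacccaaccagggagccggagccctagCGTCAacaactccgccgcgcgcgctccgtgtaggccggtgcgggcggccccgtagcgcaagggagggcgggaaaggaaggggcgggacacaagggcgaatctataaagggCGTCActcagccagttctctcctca
Gtf2h5: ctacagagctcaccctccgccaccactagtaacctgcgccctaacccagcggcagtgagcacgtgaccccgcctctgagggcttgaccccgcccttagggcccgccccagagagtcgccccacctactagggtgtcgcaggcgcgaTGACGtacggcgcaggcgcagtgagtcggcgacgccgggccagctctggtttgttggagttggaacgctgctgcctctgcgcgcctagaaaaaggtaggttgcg
The full palindrome stood in the windows of Gtf3c1 and Gtf2f1, and half-sites alone in the other five. Taf13 held 2 half-sites, Polr2a 3, and Med20, Med29 and Gtf2h5 1 each. In Gtf3c2, the eighth gene, neither was found in the window, and its peak midpoints lay 72, 138 and 92 bp downstream of the start, beyond the searched bases. The midpoints of the Gtf2f1 peaks at all 3 stages and of the Polr2a peak at E16.5 lay upstream of the printed bases, which hold only parts of those peaks. A match describes letters and shows no binding, and no match speaks only for this window.

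The distance between the CRE letters and the CREB peaks varied among these genes. In Gtf3c1, which encodes the largest, DNA-binding subunit of TFIIIC, the palindrome (chromosome 7, 125707803 to 125707810) lay inside the CREB peak at all 3 stages. It stood 3, 4 and 16 bp from the peak midpoint, from the earliest to the latest stage. In Gtf2f1, which encodes the large subunit of TFIIF, the palindrome (chromosome 17, 57011461 to 57011468) stood 87, 74 and 75 bp from the midpoints. It lay inside the peak at E16.5 and E18.5 and not inside the 150 bp peak at E13.5. Both half-sites of Taf13, a histone-fold partner of Taf11 in TFIID, lay inside the peak at every stage, 27, 40 and 34 bp and 62, 49 and 55 bp from the midpoints. The nearest half-site of Polr2a, the gene of the catalytic subunit that carries the C-terminal repeat domain, was 78, 144 and 47 bp away. The half-sites of Med20 (76, 134 and 100 bp) and Med29 (67, 110 and 130 bp) stood aside from the midpoint at all stages, and only the 630 bp peaks of E16.5 held the one of Med20.

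**Figure D1:**
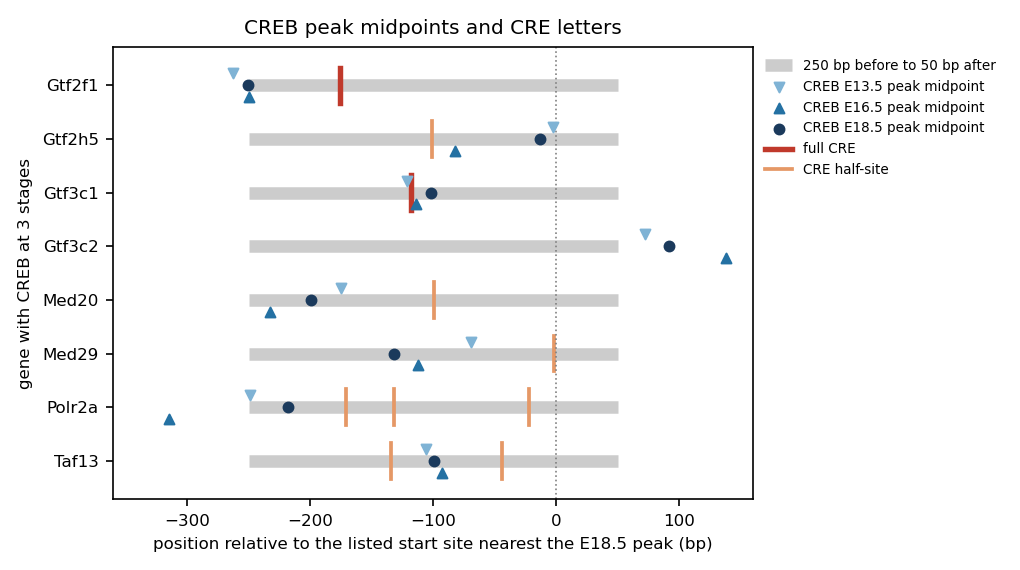
Midpoints of the CREB peaks (symbols, 1 library per stage) and centres of full CREs and half-sites (bars) at the 8 genes that CREB marked at every stage; the horizontal axis is the distance in bp from the listed start site nearest to the E18.5 peak, and the grey band marks the RefSeq window. At Gtf3c1 the palindrome, at -118 bp, sits among the midpoints at -121, -114 and -102 bp, whereas at Gtf2f1 it sits at -176 bp, beside midpoints at -263, -250 and -251 bp.

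Across the 91 genes found in the promoter table, 35 (38.5%) held a half-site or a full CRE and 4 (4.40%) the full CRE. Genes with no entry here include Med8, Med23, Med24, Med30, Gtf2e2, Polr3a, Polr3d, Polr2k, Polr2d, Polr2g, Taf2, Taf4b and Taf7. Over all 17492 protein-coding genes of the table these shares were 26.2% and 2.54%. Over all 32851 promoter windows of the table, 20.8% held a half-site and 1.79% the full CRE. Half-sites were found in 18 of 64 machinery genes without a CREB peak at an end (28.1%), 10 of 19 with a peak at 1 or 2 stages (52.6%) and 7 of 8 with a peak at 3 (87.5%). All protein-coding genes in the same classes showed 19.7%, 52.2% and 72.7%, which is the same order. The 4 genes with the palindrome were Gtf3c1, Gtf2f1, Med21 and Taf11, and each of the 4 had a CREB peak at most 1000 bp from that start site. Among all protein-coding genes with the palindrome 72.4% did (322 of 445). In Med21, a middle subunit of Mediator, it lay 49 and 32 bp from the midpoints at E16.5 and E18.5 (chromosome 6, 146642448 to 146642455).

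Of all 105 genes, 8 had a CREB peak at E13.5 (7.62%, 3.91 to 14.3), where 3.94% of protein-coding genes had one. At E16.5 there were 31 (29.5%, 21.6 to 38.8) beside 14.9% of protein-coding genes. At E18.5 there were 27 (25.7%, 18.3 to 34.8) beside 12.9%. The intervals cover counting error only. A peak of the H3K4 library lay at 93 genes (88.6%, 81.1 to 93.3), beside 52.7% of protein-coding genes. Among the 93 genes with H3K4, CREB was at 8 (8.60%), 31 (33.3%) and 27 (29.0%), and among all 11534 protein-coding genes with H3K4 at 7.2%, 27.0% and 23.4%. The intervals of the machinery shares, 4.42 to 16.1, 24.6 to 43.4 and 20.8 to 38.9, all hold that second background. At any stage CREB was at 32 of the 93 (34.4%, 25.5 to 44.5), beside 3471 of 11534 protein-coding genes with H3K4. Shares by complex below stand beside all protein-coding genes, with or without H3K4, unless stated.

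**Figure D2:**
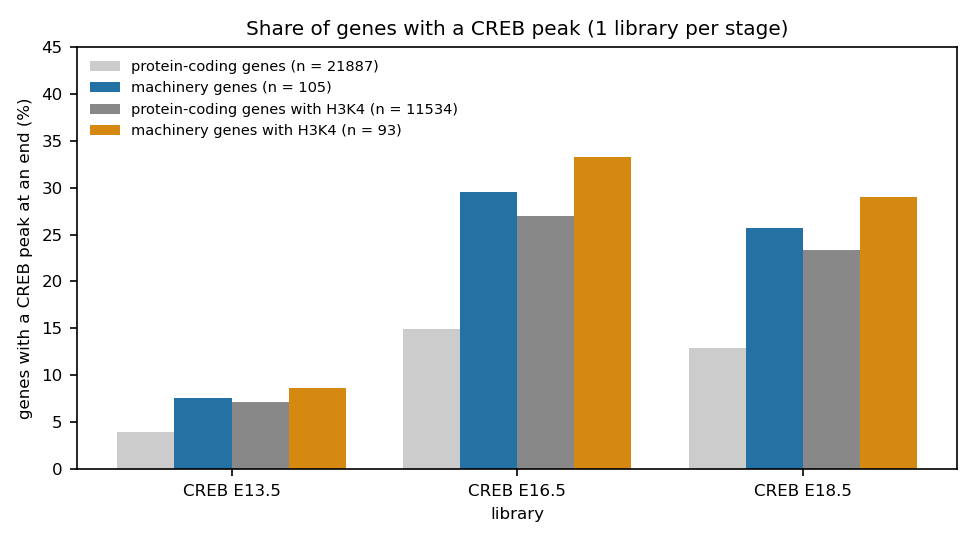
Share of genes that CREB marked (a peak at most 1000 bp from an end; vertical axis, %) at the 3 stages, for all protein-coding genes, the 105 machinery genes, and both sets limited to genes with an H3K4 peak; each bar rests on 1 library, and there are no error bars. At E16.5 the machinery bar is at 29.5% beside 14.9%, and among genes with H3K4 the bars are at 33.3% and 27.0%.

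The 8 genes of E13.5 all had peaks in both later lists, and so did 97.2% of all protein-coding genes marked at E13.5 (838 of 862). A further 18 genes had peaks at E16.5 and E18.5 (17.1%, beside 7.4% of protein-coding genes with peaks at 2 stages). A single list held 6 genes (5.71%, beside 5.48%), namely Gtf2a2, Gtf2f2, Gtf2h1, Med9 and Polr2k at E16.5 and Taf10 at E18.5. The remaining 73 had none, and at 57 of them the nearest CREB midpoint was over 10 kb from an end in every list. The lists differ in length, with 862, 3528 and 2957 peaks, and in peak width, with 150, 630 and 160 bp. When only the first 862 peaks of each list were taken, in file order, 9 genes had a peak at E16.5 and 11 at E18.5, beside 4.36% and 4.29% of protein-coding genes. Depth behind the lists is unknown, so a gene missing from the E13.5 list is not shown to lack CREB at that stage.

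**Figure D3:**
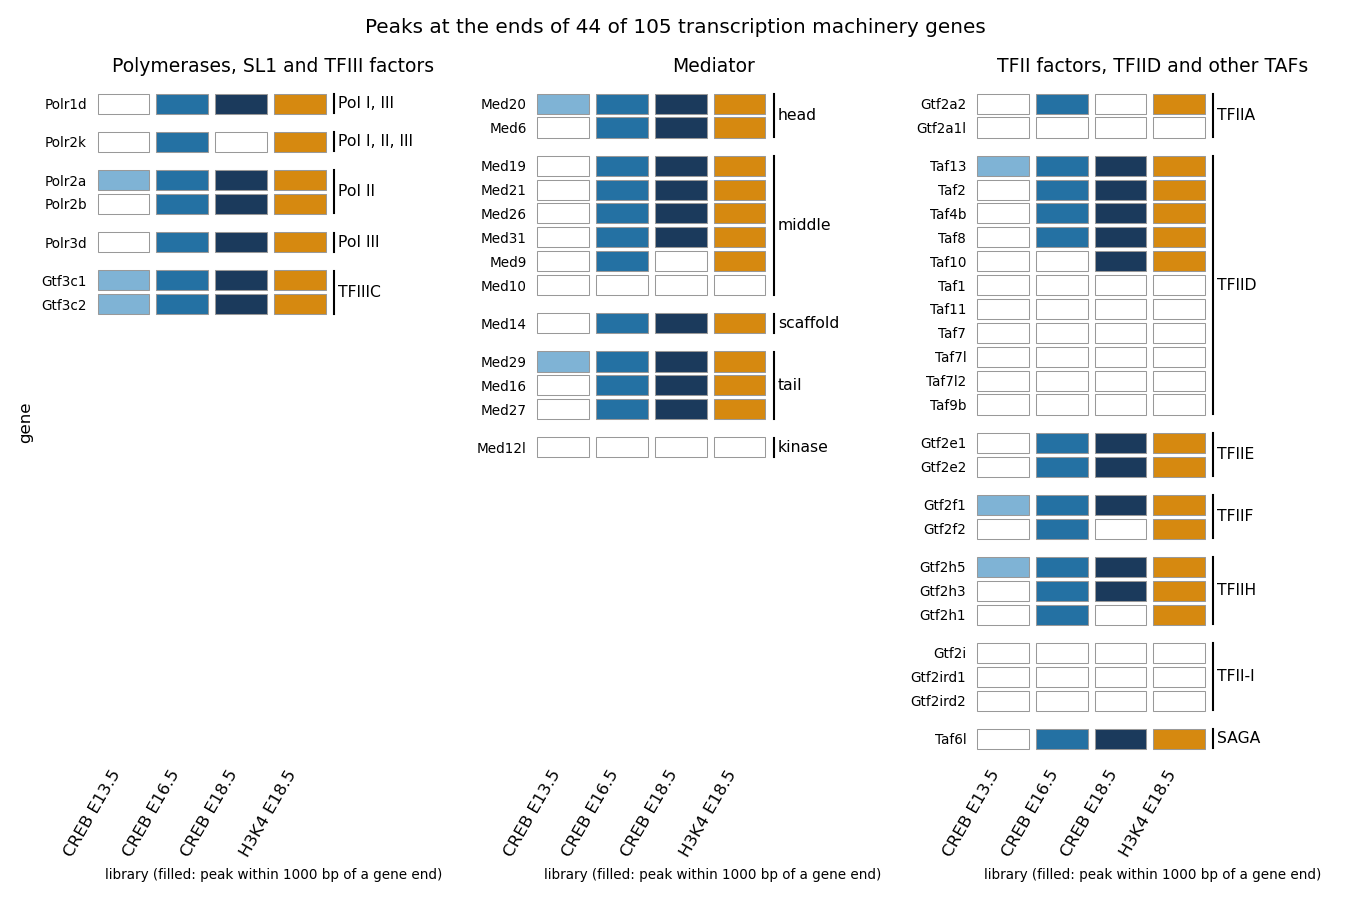
Peaks at the ends of 44 of the 105 genes, the 32 with a CREB peak at any stage and the 12 without an H3K4 peak, 1 row per gene grouped by complex and 1 column per library; a filled box marks a peak within 1000 bp of an outer gene end, an open box none. The H3K4 column is filled for all 32 genes with CREB, and the E13.5 CREB column for 8, all of them filled at E16.5 and E18.5 too.

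Of the 28 RNA polymerase genes, CREB marked 5 at any stage (17.9%), beside 32 of the whole 105 (30.5%) and 16.7% of protein-coding genes, while all 28 had an H3K4 peak. Among all protein-coding genes with H3K4, CREB marked 3471 of 11534 at any stage. In polymerase II only the genes of the 2 largest subunits were marked. Polr2a had its peak 249, 315 and 218 bp before the start at the 3 stages, and Polr2b, whose product forms the active centre together with that of Polr2a, 229 and 112 bp before the start at E16.5 and E18.5. Both Polr2b peaks lay nearer to an end of the neighbouring gene Noa1. The other 6 polymerase II genes (Polr2c, Polr2d, Polr2g, Polr2i, Polr2j and Polr2m) had none. Of the 5 subunits common to all of these enzymes, Polr2k had a peak, at E16.5, and Polr2e, Polr2f, Polr2h and Polr2l had none. Of the 2 shared by polymerases I and III, Polr1d had peaks at E16.5 (chromosome 5, 147076762 to 147077391) and E18.5 (147076567 to 147076726), which missed each other by 35 bp, and Polr1c had none. None of the genes specific to polymerase I within the symbol rule (Polr1a, Polr1b and Polr1e) had a peak. Other polymerase I subunit genes, Znrd1, Cd3eap and Twistnb, fall outside the rule and did have CREB peaks, as given below. The 4 genes of SL1 (Taf1a, Taf1b, Taf1c and Taf1d), the TAF complex that serves polymerase I, had none. In polymerase III 1 of the 10 genes within the rule was marked, Polr3d, at E16.5 and E18.5. Those without a peak include Polr3a, Polr3b and Polr3c.

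The TFIII factors within the symbol rule, TFIIIA and TFIIIC, which serve polymerase III, had 2 of 7 genes marked (28.6%, beside 16.7% of protein-coding genes at any stage). Both were marked at all 3 stages. These were Gtf3c1 and Gtf3c2, 2 subunits of TFIIIC, the complex that recognises promoter elements inside transfer RNA genes. In the 3 lists in turn, Gtf3c1 peaks stood at position 792 of 862, 191 of 3528 and 334 of 2957, and Gtf3c2 peaks at 529, 422 and 417. Gtf3c3, Gtf3c4, Gtf3c5, Gtf3c6 and Gtf3a had none. All 7 genes had an H3K4 peak, and at any stage CREB marked 3471 of the 11534 protein-coding genes with H3K4.

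Mediator had 11 of 30 genes marked at any stage (36.7%, beside 16.7% of protein-coding genes), spread over its head, middle, scaffold and tail. An H3K4 peak lay at 28 of the 30, and at any stage CREB marked 3471 of the 11534 protein-coding genes with H3K4. In the middle module 5 of 9 were marked (Med19, Med21, Med26, Med31 and Med9), in the head 2 of 7 (Med20 and Med6) and in the tail 3 of 9 (Med29, Med16 and Med27). The scaffold gene Med14 had a peak at E16.5 and E18.5. None of the 4 kinase-module genes within the symbol rule, Med12, Med12l, Med13 and Med13l, had a CREB peak. Of the kinase-module genes outside the rule, Cdk19 had CREB in all 3 lists, Cdk8 at E18.5 and Ccnc in none. Med20 and Med29 were the Mediator genes within the rule with CREB at E13.5. The Med20 peak stood at 21.5%, 8.76% and 8.56% of the way through the 3 lists, and lay 175, 233 and 199 bp before the start. Med1, the subunit known for contacts with nuclear receptors, had no peak within 1000 bp of an end. H3K4 without CREB lay at Med1, Med4 and Med7 of the middle, at Med8, Med11, Med17, Med18 and Med22 of the head, at Med15, Med23, Med24, Med25, Med28 and Med30 of the tail, and at Med12, Med13 and Med13l. Med10 and Med12l had neither at an outer end, and their nearest H3K4 midpoints were 5546 and 1415 bp away.

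Among the TFII factors, 8 of 16 genes were marked at any stage, beside 16.7% of protein-coding genes. An H3K4 peak lay at 12 of the 16, and at any stage CREB marked 3471 of the 11534 protein-coding genes with H3K4. Both genes of TFIIE (Gtf2e1 and Gtf2e2) and both of TFIIF (Gtf2f1 and Gtf2f2) were marked, and 3 of 5 Gtf2h genes of TFIIH, which opens the promoter and also serves DNA repair. TFIIA had 1 of 3, Gtf2a2, and the TFIIB gene Gtf2b had none. Gtf2a1, Gtf2b, Gtf2h2 and Gtf2h4 had H3K4 without CREB. Gtf2h5, which encodes the smallest TFIIH subunit, was marked at 3 stages, at positions 521, 997 and 746. The 2 peaks counted for Gtf2h3 were different places. The one at E16.5 lay 70 bp before the start, and the one at E18.5 lay 986 bp from the far end of the gene, where the end of Tctn2 was nearer. Gtf2i, Gtf2ird1 and Gtf2ird2, which the symbol rule includes although TFII-I is a regulatory factor, had neither CREB nor H3K4 at an outer end.

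TFIID, which brings TBP to polymerase II promoters, had 5 of 17 genes marked at any stage (29.4%, beside 16.7% of protein-coding genes). An H3K4 peak lay at 11 of the 17. Taf13 stood at 61 of 862, 271 of 3528 and 177 of 2957, the earliest position of any machinery gene at E13.5 and E18.5. Its peaks at chromosome 3, 108571518 to 108571667, 108571291 to 108571920 and 108571520 to 108571679 had midpoints 106, 93 and 99 bp before the start. Taf2, Taf8 and Taf4b were marked at E16.5 and E18.5. Taf4b encodes the paralog of Taf4 that is enriched in gonads, and its peaks were centred 107 and 88 bp from an end of the gene, whereas Taf4 had none. Taf7l and Taf7l2, paralogs of Taf7, and the TFIIA paralog Gtf2a1l had neither CREB nor H3K4, and the nearest H3K4 midpoints were 55592, 93261 and 66687 bp from an end. Taf1, Taf11, Taf7 and Taf9b had neither at an outer end as well, while Taf3, Taf4, Taf5, Taf6, Taf9 and Taf12 had H3K4 alone. Of the TAF genes outside TFIID and SL1, Taf6l of the SAGA coactivator was marked at E16.5 and E18.5, and Taf5l and Taf15 were not.

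Outer gene ends miss some starts. The RefSeq window table places the start of Taf1, the largest TFIID subunit, inside the gene as annotated, and a CREB peak lay 116, 107 and 118 bp before that start at the 3 stages (at E18.5 chromosome X, 101532537 to 101532696). Taf11, the partner of Taf13, had CREB peaks 200 and 103 bp before a listed start at E16.5 and E18.5. Its palindrome lay inside the E16.5 peak and was not wholly inside the E18.5 peak. Gtf2ird2 had peaks 439 and 472 bp after its start at those stages, and at Gtf2a1 the E16.5 peak reached into the window as well. With listed starts counted beside gene ends, 9, 35 and 30 of the 105 genes had CREB at the 3 stages, and 101 had H3K4. Over all protein-coding genes the same setting gave 4.24%, 16.0% and 13.8% for CREB and 57.3% for H3K4. The only genes then left without H3K4 were Taf7, Taf7l, Taf7l2 and Gtf2a1l.

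CREB peaks lay at the starts of these genes, mostly upstream. Where the table tells the start from the other end, the start side held 8 of 8 peaks of the E13.5 list, 26 of 27 of the E16.5 list and 22 of 24 of the E18.5 list. The 3 exceptions were the E18.5 peak of Gtf2h3 and the peaks of Taf6l, at both later stages, whose end meets that of Tmem179b. Taf6l also had a peak at its start at both stages. Median positions at the start side were -113, -76 and -100 bp, negative being upstream, with 7 of 8, 20 of 26 and 17 of 22 midpoints upstream. Over all protein-coding genes, taken around listed starts, the medians were -107, -83 and -99 bp, with 81.1%, 74.1% and 80.6% upstream. The farthest were Med31, 443 and 438 bp downstream, and Polr1d, at -699 bp in the E18.5 list. The listed start of Polr1d lies inside the gene as annotated, and that midpoint was 68 bp from the outer gene end. H3K4 midpoints at these genes had their median 96 bp downstream, with 68 of 107 downstream.

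**Figure D4:**
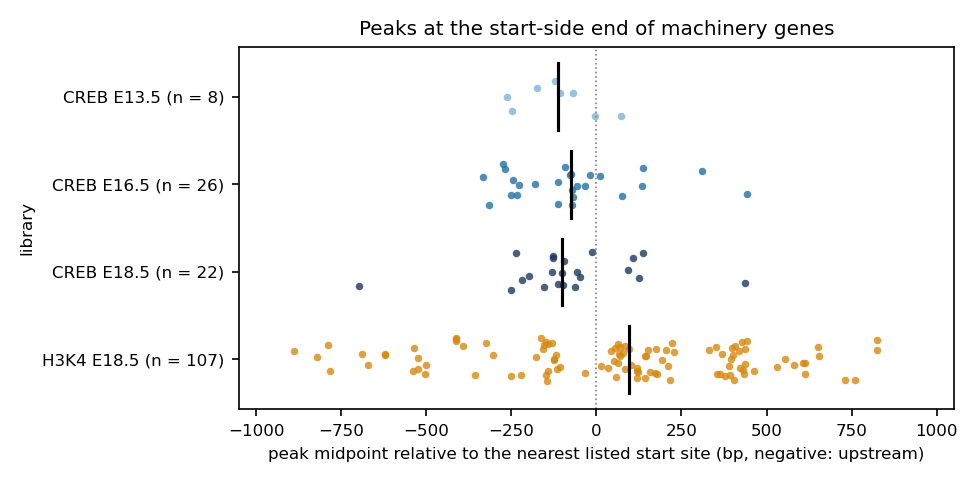
Midpoints of peaks at the start-side end of machinery genes, 1 point per gene and peak, by library; the horizontal axis is the distance in bp from the nearest listed start site (negative is upstream), the vertical jitter has no meaning and the black bar is the median. CREB medians lie at -113, -76 and -100 bp and the H3K4 median at 96 bp.

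Peaks of one gene overlapped between stages in nearly every case. All 8 genes with CREB at E13.5 had overlapping peaks at E16.5 and at E18.5, with midpoints 7 to 79 bp and 7 to 63 bp apart. Of the 26 genes with peaks at E16.5 and E18.5, 24 had overlapping peaks, and the exceptions were Polr1d and Gtf2h3. Peaks compared here all lay at an end of the same gene, and those of E16.5 are 630 bp wide, so overlap was likely beforehand. The same share over all protein-coding genes was not computed. The closest midpoints were 1 bp apart, at Gtf2f1. All 32 genes with CREB at any stage also had an H3K4 peak at an end (100%, 89.3 to 100), beside 94.9% of protein-coding genes with CREB. At E18.5, the stage that both antibodies share, 15 of 28 CREB peaks overlapped an H3K4 peak directly (53.6%, beside 33.1% of all CREB peaks of that list). At all 28 an H3K4 midpoint lay within 1000 bp, at a median of 164 bp, and the same held for 88.3% of all CREB peaks of that list. Both shares of the whole list include CREB peaks away from gene ends. The shares for CREB peaks at protein-coding gene ends alone were not computed. The extremes were Taf10, with the midpoints 2 bp apart, and Gtf2e2, with 950 bp. At Taf13 the H3K4 midpoint lay 496 bp downstream of the CREB midpoint, and at Gtf3c1 657 bp downstream. At Polr2a, H3K4 peaks stood on both sides of it, 689 bp before and 654 bp after the start.

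Genes marked at 3 stages stood earlier in the longer lists than those marked at 2, though no source used here says that file order follows peak strength. Leaving aside peaks at far gene ends, 25 genes had a peak at both E16.5 and E18.5. The 8 with E13.5 as well had a median position at 13.9% of the E16.5 list and 14.7% of the E18.5 list. For the other 17 the medians were 44.6% and 67.7%. Within the E13.5 list itself, Gtf3c1 (position 792) and Gtf2f1 (775) were near the end.

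**Figure D5:**
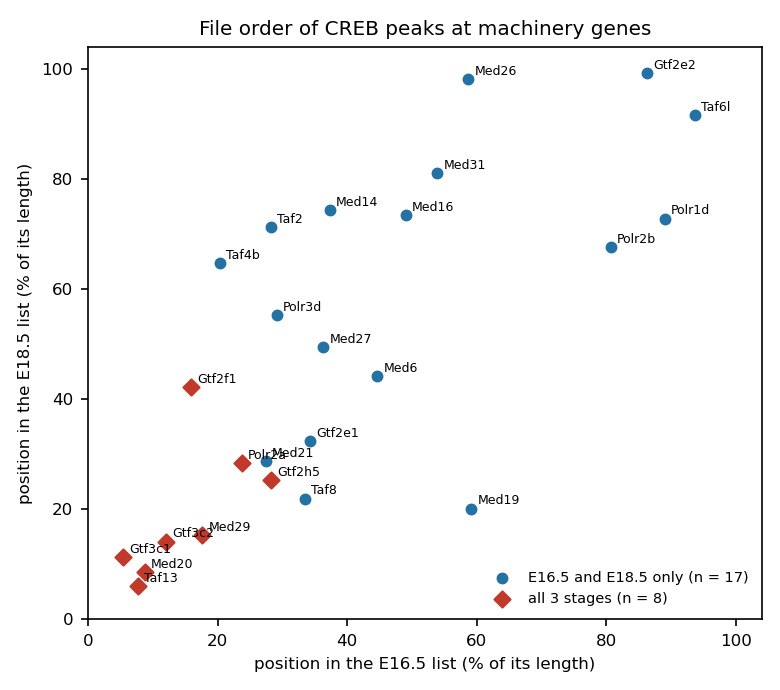
Position of each gene's CREB peak in the E16.5 list (horizontal axis) and the E18.5 list (vertical axis), in % of the list length, for 25 machinery genes with a peak in both, leaving out peaks at far gene ends; diamonds also had a peak at E13.5. The diamonds have medians of 13.9% and 14.7%, and the circles 44.6% and 67.7%.

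Many of these peaks also lay at another gene. Of the 32 genes with CREB at any stage, 15 shared at least one peak with the end of another protein-coding gene, and for 7 of these every CREB peak was nearer to the neighbour: Gtf2e1 (Rabl3), Gtf2h1 (Hps5), Gtf2h3 (Eif2b1 and Tctn2), Gtf3c1 (D430042O09Rik), Med20 (Bysl), Med31 (4930563E22Rik) and Polr2b (Noa1). The peak of Med29 is shared with Paf1, an elongation factor gene, and was nearer to Med29. When a peak counted only for the nearest gene, 6, 24 and 21 genes were marked at the 3 stages, beside 3.09%, 12.2% and 10.6% of protein-coding genes. No peak was shared by 2 machinery genes. Taf13, Gtf2f1 and Gtf3c2 were the genes marked at 3 stages that shared their peaks with no other protein-coding gene.

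Partners of the machinery with other kinds of symbol were read from a list of 63 genes, all found in the annotation. Of these, 13, 27 and 26 had a CREB peak in the 3 lists in turn, 12 had one in every list, and 57 had H3K4. The shares of all protein-coding genes are 3.94%, 14.9% and 12.9% in turn, 3.83% for every list and 52.7% for H3K4. Pause and elongation factors, the largest group, had 12 of 22 marked at any stage (54.5%, beside 16.7% of protein-coding genes) and 6 at all 3: Ccnt1, Nelfa, Supt6, Ell, Ell2 and Paf1. All 22 had an H3K4 peak. Of the 9 genes of TFIIIB, SNAPc and their regulator, 5 were marked, Snapc1 and Snapc5 at all 3 stages. Tbp, which every nuclear polymerase needs, had a CREB peak at E18.5 and no H3K4 peak at an outer end. Of the TFIIH partners, Ccnh was marked and Ercc2, Ercc3, Cdk7 and Mnat1 were not. In the Mediator kinase module Cdk19 was marked at 3 stages, Cdk8 at E18.5 and Ccnc at none. Polymerase I subunits under older symbols differed from Polr1a, Polr1b and Polr1e: Znrd1 had CREB at 3 stages, and Cd3eap and Twistnb at E16.5 and E18.5. Crcp, a polymerase III subunit whose symbol falls outside the rule, had CREB at E16.5.

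The labelled tissue was checked on H3K4 at 25 marker genes of fetal gonad and other cells. H3K4 peaks lay at Sox9, Amh and Dhh of Sertoli cells, at Star, Cyp11a1 and Nr5a1 of Leydig cells and at Dazl of germ cells, and not at Gata4, Wt1, Cyp17a1, Hsd3b1, Insl3, Ddx4, Dppa3, Pou5f1 or Nanos2. They lay also at Foxl2 and Rspo1, known from the ovary, and at Cdh5 but not Pecam1 of endothelium, and at none of 2 macrophage and 3 other-tissue genes. Together 10 of the 25 had H3K4, beside 52.7% of all protein-coding genes, so these peaks do not identify the tissue. No marker had a CREB peak at an end. The cells of the gonad were not separated, so a peak does not tell which of them carried it.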

How the data were processed

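The authors deposited 1 peak list for each of 4 of the 5 libraries, with chromosome, start and end in mm10 coordinates and no score, fold or count. Per the submitters' processing notes, Trim Galore 0.6.10, Bowtie2 2.5.2 and MACS2 were used; of peak settings and of the IgG library's use nothing is given in the sources used here. Per the labels, 100000 cells passed through a 70 µm filter entered each assay.

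Peaks on assembled chromosomes were set against RefSeq GRCm38.p6 gene ends by overlap of at least 1 bp, and printed 1-based. Distances run from the peak midpoint. Sequences and start sites came from the RefSeq promoter table, which matched 91 of 105 members, 16 of them with 2 start sites. Complexes were assigned from textbook knowledge. The members and lists were chosen with earlier results of these data known. Named are all members with a CREB peak, all without H3K4, and most with H3K4 alone; the other members are counted only. Shares carry Wilson intervals. Counts were repeated with gene ends of 500 and 2500 bp, 150 bp peaks, the first 862 peaks, listed starts, nearest genes and midpoints; listed starts added to gene ends were chosen after seeing the data. Peak assignment was tested on simulated data, where all 200 planted gene ends were found in each library. Python 3.11.15, numpy 2.4.6, pandas 2.3.3, scipy 1.17.1 and matplotlib 3.10.9 were used.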

Additional observations from a re-analysis of the deposited data

How the results depend on the processing

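Of 8 counts under 8 alternative settings, 4 values are left aside because the setting leaves the peaks behind them as they are, or nearly so: the E13.5, H3K4 and E13.5-with-H3K4 counts when the CREB lists are shortened, and the E13.5 count when peaks are set to 150 bp. Of the other 60, 55 stayed within 1.5 times the reported count. In all 60 the share of machinery genes was above that of protein-coding genes treated in the same way, in some by little. The settings reuse the same lists and genes, so the 60 values are not independent and their agreement is no added support. With the first 862 peaks of each CREB list, counts fell from 31 to 9 at E16.5 and from 27 to 11 at E18.5, by the construction of that setting, which uses fewer peaks; among genes with H3K4 they were also 9 and 11. When peaks counted only for the nearest gene, 5 of 86 genes with H3K4 had CREB at E13.5, in place of 8 of 93. That share was 5.81%, beside 5.64% of protein-coding genes with H3K4 in the same setting. Windows of 500 bp removed Gtf2h3 at E18.5 and windows of 2500 bp added Med26 at E13.5 and Gtf2a1, Gtf2ird2, Med1 and Taf11 at the later stages. With every peak at 150 bp (nearly the width of the E13.5 peaks as deposited), or with midpoints required in the window, no machinery gene changed. No paired analysis was possible because each antibody and stage has 1 library. For the same reason no library could be left out. No peak has a read depth, so precision within a list cannot be given.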
